A study of Homo sapiens with 6 samples.

Results

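The 9 genes described here encode laminin chains and parts of the hemidesmosome, the junction that anchors a basal epithelial cell to the basement membrane. They are taken by gene symbol: LAMA3, LAMA5, LAMB1, LAMB3 and LAMC1 of the laminins, ITGA6 and ITGB4 of the laminin receptor, and DST and PLEC of the cytoplasmic plaque. All 9 were found among the 57736 genes of the count table, each with 1 identifier, and all 9 were among the 15421 genes abundant enough to test.

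A laminin is a heterotrimer of an alpha, a beta and a gamma chain that is secreted into the basement membrane. The LAMA3 and LAMB3 chains belong to the laminin to which hemidesmosomes attach, and the trimer of the LAMA5, LAMB1 and LAMC1 chains is a general laminin of mature epithelial basement membranes. The integrin of ITGA6 and ITGB4 binds laminin at the cell surface, and plectin (PLEC) and the epithelial form of dystonin (DST) tie the long ITGB4 tail to keratin filaments. Basal cells of the airway carry hemidesmosomes, and the basement membrane trimer they secrete is also a substrate for attachment and migration after injury.

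PolyA RNA was sequenced from AALE cells, a human line from basal cells of the bronchial epithelium, transformed with SV40 and hTERT and grown in small airway epithelial growth medium. Cells of both groups had been transduced with a lentivirus, which carried no added gene in the control vector group and NRG1, the gene of the ERBB receptor ligand neuregulin, in the NRG1 vector group. Each group has 3 libraries from stable pools of selected cells of this 1 line, with no clone, dose or time named. Whether the libraries came from separate cultures is not stated, and the p-values then measure only how far these libraries vary, which may be technical. The sources used here do not name the promoter that drives NRG1 in the vector.

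Library totals ran from 8612234 to 13207620 expected counts, and the 9 genes rested on 2230 to 13905 expected counts each per library, so counting error was small beside the spread between libraries. NRG1 itself stood at 11.6, 7.87 and 12.3 CPM (counts scaled to the library total and by TMM) in the controls, against 6647, 3854 and 3781 CPM in the NRG1 libraries; values are given in this order, library 1 to 3, throughout. Control 3 and NRG1 1 stood apart from the other libraries of their groups on the first 2 principal components (44.5% and 27.3% of the variance). NRG1 2 and NRG1 3 were closer to each other than any other pair, with a chi-square of 2.66 per gene against 18.8 to 95.4 for the other pairs, which is still more than sampling noise. Values without control 3 and NRG1 1 are therefore given beside the results that rest on them, as a 2 against 2 comparison. Taking out libraries for their distance lowers the spread, which makes p-values of that comparison too small by an amount that cannot be given. The basal cell markers TP63 and KRT5 were present in every library, at 158 to 228 CPM and at 3141 to 6952 CPM, and the markers of other cell types are given further on.

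Of the 9 genes, 0 passed an adjusted p of 0.05 in the comparison of all 6 libraries (quasi-likelihood test of edgeR, Benjamini-Hochberg adjustment over all genes), against 0.00648% of all genes tested, which is NRG1 alone. At an unadjusted p under 0.05 there was 1 of the 9, ITGB4, which was lower, against 11.8% of all genes in either direction and 6.72% lower. DESeq2 called 0 of the 9, against 1.36% of all genes, and had LAMA5 alone at an unadjusted p under 0.05, against 12.5% of all genes. The fitted log2 fold change was below 0 for 7 of the 9, against 50% of all genes. The 7 include ITGA6, whose value rounds to 0.00 and shows no direction. The median of the 9 was -0.19, against 0.00 over all genes. Groups that did not overlap were found for 1 of the 9, PLEC, against 19.6% of all genes in either direction and 10.2% lower. In the 2 against 2 comparison 3 of the 9 passed the threshold, against 9.84% of all genes: LAMA5 was higher, against 5.07% of all genes, and LAMA3 and ITGB4 were lower, against 4.77%.

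**Figure D1:**
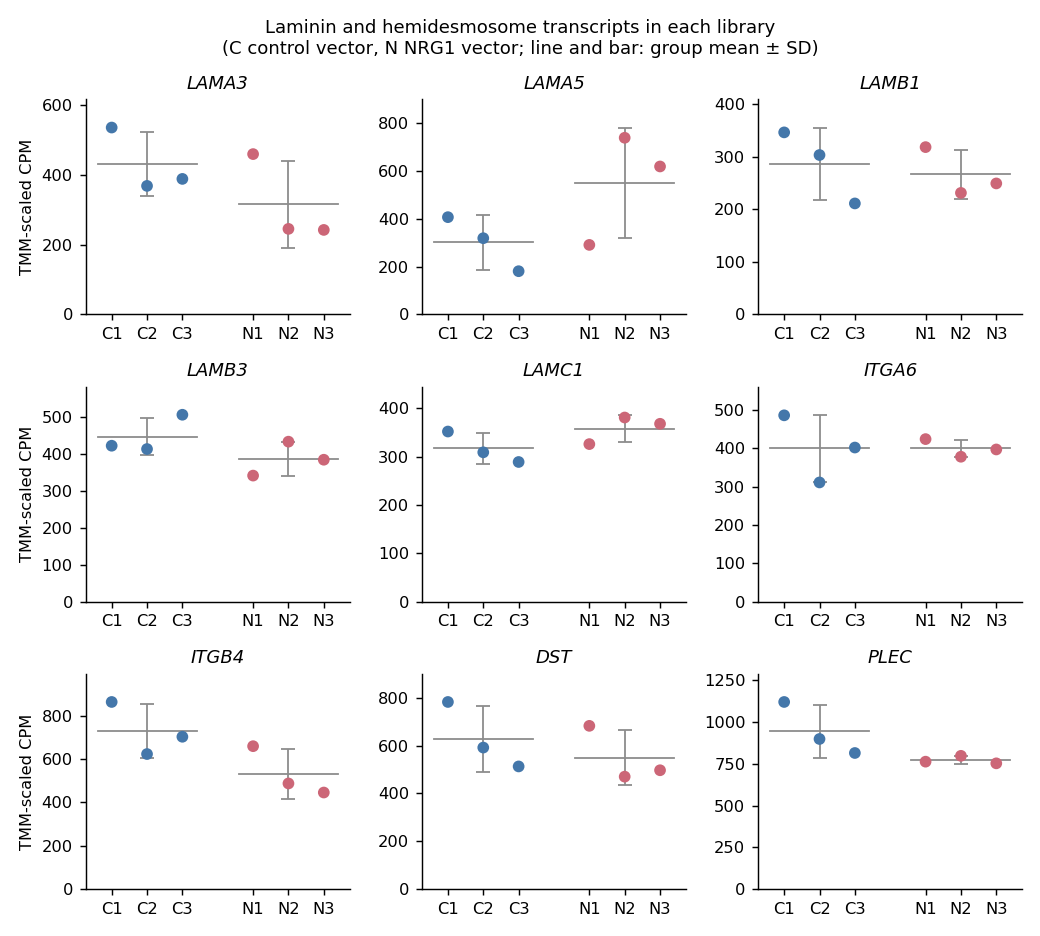
TMM-scaled CPM of the 9 genes in each library, with control vector libraries C1 to C3 in blue and NRG1 vector libraries N1 to N3 in red; lines and bars are the group mean and SD (n = 3 each), and every vertical axis starts at 0. N2 and N3 lie together in every panel, and in the LAMA3 and LAMA5 panels N1 lies among the controls.

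The alpha chains sit at the centre of the laminin trimer and carry the domain that integrins bind. LAMA3 (ENSG00000053747, chromosome 18) encodes the alpha chain of the hemidesmosome-bound laminin. The control libraries had 535, 368 and 388 CPM, and the NRG1 libraries had 459, 245 and 242 CPM. NRG1 2 and NRG1 3 lay below all controls, while NRG1 1 lay between control 3 and control 1, so the groups overlapped. The means were 430.4 ± 91.5 and 315 ± 125 CPM (SD, n = 3 each), and the log2 fold change was -0.45 (SE 0.28, 95% confidence interval -1.09 to 0.19) with an adjusted p of 0.532 by edgeR. Without control 3 and NRG1 1, LAMA3 fell by 0.90 on the log2 scale (SE 0.17, adjusted p = 0.0236 by edgeR).

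LAMA5 (ENSG00000130702, chromosome 20), the alpha chain of the general epithelial laminin, varied most of the 9 genes. The control libraries had 407, 319 and 181 CPM, and the NRG1 libraries had 291, 739 and 619 CPM. The highest library was 4.1 times the lowest, which was control 3. NRG1 2 and NRG1 3 were above all controls, and NRG1 1 was inside the control range. The means were 302 ± 114 and 549.8 ± 232 CPM (SD, n = 3 each), and the log2 fold change was 0.86 (SE 0.38, 95% confidence interval -0.01 to 1.74) with an adjusted p of 0.426 by edgeR. Without NRG1 1 it was 1.17 (adjusted p = 0.154 by edgeR), and without control 3 it was 0.59. With both left out, LAMA5 rose by 0.90 (SE 0.16, adjusted p = 0.0172 by edgeR).

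Because these alpha chain genes went opposite ways in NRG1 2 and NRG1 3, the sequences before their start sites are shown, with that of LAMB3, the beta chain partner of LAMA3. RefSeq windows (GRCh38.p14, 250 bases before to 50 after an annotated start) were available for 7 of the 9 genes, 12 windows in all, of which some overlap. ITGB4 and PLEC had no entry. The windows were searched on both strands for the AP-1 motif TGANTCA and the GC box GGGCGG, which cannot overlap each other. The 250 bases before each start are given 5′ to 3′ on the strand of the gene, for LAMA3 (chr18:23872770-23873019, plus strand), LAMB3 (chr1:209651375-209651624, minus strand) and LAMA5 (chr20:62367313-62367562, minus strand), with AP-1 motifs and GC boxes of either strand in capitals. LAMB3 has 3 windows, and the third is shown because it alone holds an AP-1 motif.
LAMA3: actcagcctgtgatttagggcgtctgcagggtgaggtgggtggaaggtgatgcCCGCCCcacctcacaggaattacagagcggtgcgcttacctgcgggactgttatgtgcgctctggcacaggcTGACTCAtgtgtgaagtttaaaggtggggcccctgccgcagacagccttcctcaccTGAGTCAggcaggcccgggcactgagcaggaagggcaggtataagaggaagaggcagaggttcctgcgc
LAMB3: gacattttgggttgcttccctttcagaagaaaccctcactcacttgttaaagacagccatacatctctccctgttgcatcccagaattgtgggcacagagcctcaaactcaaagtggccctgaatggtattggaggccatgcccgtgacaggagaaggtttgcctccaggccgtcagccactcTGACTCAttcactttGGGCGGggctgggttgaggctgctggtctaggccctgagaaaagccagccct
LAMA5: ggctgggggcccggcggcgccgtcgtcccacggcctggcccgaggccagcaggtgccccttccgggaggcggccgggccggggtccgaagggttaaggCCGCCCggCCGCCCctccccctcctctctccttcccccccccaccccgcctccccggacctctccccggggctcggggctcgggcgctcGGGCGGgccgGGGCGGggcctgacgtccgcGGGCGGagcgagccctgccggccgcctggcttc
The LAMA3 window held 2 AP-1 motifs, whose first bases lay 125 and 69 bases before the start, and the third LAMB3 window held 1, which began 67 bases before it, while the other LAMB3 windows held none. DST had 1 in its first window, 25 bases after the start. The motif was thus in 3 of the 12 windows, and in 7.71% of all 35116 windows in the table. The GC box was in 10 of the 12 windows and in 45% of all windows, with 5 matches before the LAMA5 start and 1 each before the LAMA3 start and the third LAMB3 start. These matches describe the letters of the windows, and no binding was measured.

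The beta and gamma chains varied less between libraries than the alpha chains: the highest library was 1.64 times the lowest for LAMB1 and 1.48 times for LAMB3, against 2.21 times for LAMA3. LAMB3 (ENSG00000196878, chromosome 1), whose chain pairs with that of LAMA3, was measured at 423, 414 and 507 CPM in the controls, against 342, 434 and 385 CPM in the NRG1 libraries. Its groups overlapped through NRG1 2, and the log2 fold change was -0.21 (SE 0.16, 95% confidence interval -0.57 to 0.15). LAMA3 and LAMB3 thus did not share their library pattern: LAMB3 was highest in control 3 and lowest in NRG1 1, and LAMA3 was highest in control 1 and lowest in NRG1 3.

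LAMB1 (ENSG00000091136, chromosome 7), a beta chain of the general laminin, was at 346, 303 and 211 CPM in the control libraries, and the NRG1 libraries had 318, 231 and 249 CPM. All 3 NRG1 libraries lay inside the control range. LAMB1 had a log2 fold change of -0.10 (SE 0.22, 95% confidence interval -0.60 to 0.39), and one of 0.05 without control 1. Over 2 against 2 libraries it was -0.44, with an adjusted p of 0.0551 by edgeR.

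LAMC1 (ENSG00000135862, chromosome 1), the gamma chain that most laminins share, was the steadiest of the 9 genes. It was present at 352, 309 and 289 CPM with the control vector, and at 326, 381 and 368 CPM with the NRG1 vector, so that its highest library was 1.32 times its lowest. NRG1 2 and NRG1 3 were above all controls and NRG1 1 was inside their range. The log2 fold change was 0.18 (SE 0.15, 95% confidence interval -0.16 to 0.51), and the same 0.18 without control 3 and NRG1 1.

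The receptor in hemidesmosomes joins ITGA6 and ITGB4. ITGB4 (ENSG00000132470, chromosome 17) encodes its beta chain, whose long tail reaches into the plaque. The control libraries had 865, 624 and 704 CPM, and the NRG1 libraries had 660.4, 488 and 446 CPM. Only NRG1 1 was above the lowest control, control 2. The means were 731 ± 123 and 532 ± 114 CPM (SD, n = 3 each), and the log2 fold change was -0.46 (SE 0.20, 95% confidence interval -0.92 to 0.00), with an unadjusted p of 0.0496 and an adjusted p of 0.424 by edgeR. In the 2 against 2 comparison ITGB4 fell by 0.68 on the log2 scale (SE 0.17, adjusted p = 0.048 by edgeR), and with a correction for GC content the value was -0.71 (SE 0.18, adjusted p = 0.0623 by edgeR), as large but no longer past the threshold.

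ITGA6 (ENSG00000091409, chromosome 2), the alpha chain of the same receptor, also pairs with the integrin beta chain ITGB1. It was measured at 486, 311 and 402 CPM in the controls, against 424, 378 and 397 CPM in the NRG1 libraries. All 3 NRG1 libraries were inside the control range, and the means were 399.9 ± 87.6 and 399.8 ± 22.8 CPM (SD, n = 3 each). The log2 fold change was 0.00 (SE 0.18), with a 95% confidence interval of -0.42 to 0.42 that leaves room for a change of that size either way.

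In the plaque inside the cell, PLEC (ENSG00000178209, chromosome 8), the linker from ITGB4 to keratin filaments, was at 1121, 899 and 815 CPM in the control libraries, and the NRG1 libraries had 763, 798 and 753 CPM. All NRG1 libraries were below all controls, but the lowest control (815 CPM) and the highest NRG1 library (798 CPM) were close. The means were 945 ± 158 and 772 ± 23.4 CPM (SD, n = 3 each). The log2 fold change was -0.29 (SE 0.16, 95% confidence interval -0.66 to 0.08), with an adjusted p of 0.491 by edgeR.

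DST (ENSG00000151914, chromosome 6) encodes dystonin, of which the epithelial form is a hemidesmosome plaque protein. It was present at 783, 592 and 513 CPM with the control vector, and at 683, 470 and 497 CPM with the NRG1 vector. Of the NRG1 libraries, the second and the third were below all controls and NRG1 1 was above 2 of them. DST had a log2 fold change of -0.19 (SE 0.21, 95% confidence interval -0.69 to 0.30), and -0.51 in the 2 against 2 comparison (adjusted p = 0.0781 by edgeR). The count of DST joins all its transcripts, of which the epithelial form is 1, and the table does not separate them.

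**Figure D2:**
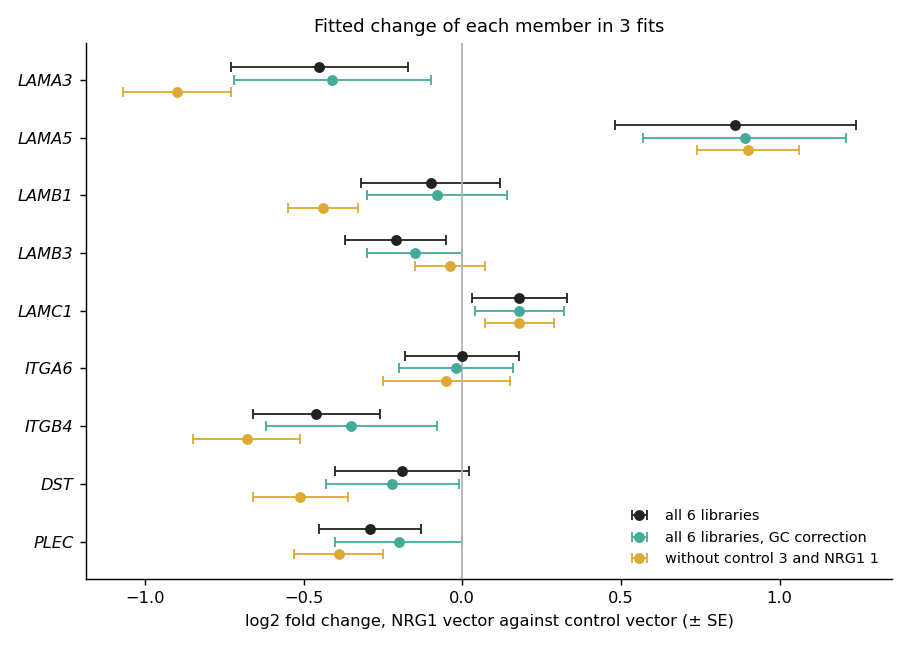
Fitted log2 fold change of NRG1 vector against control vector with its SE for each gene, over all 6 libraries (black), over all 6 with a correction for GC content per library (green), and without control 3 and NRG1 1 (yellow). LAMA5 lies above 0 in all 3 fits, and LAMA3 moves from -0.45 to -0.90 when the 2 libraries are left out.

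Across the 9 genes NRG1 1 was inside the control range for 7, and outside it for LAMB3 and PLEC, where it was lower. NRG1 2 and NRG1 3 were both above all controls for 2 genes, LAMA5 and LAMC1, and both below for 4, LAMA3, ITGB4, DST and PLEC. The share of all genes tested that meets this was not counted, so these numbers are not shown to be particular to the 9 genes. The levels of NRG1 2 and NRG1 3 differed from each other by 1.01 to 1.20 times over the 9 genes. Over all 6 libraries the adjusted p by edgeR was 0.601 to 1 for LAMB3, LAMC1, DST, LAMB1 and ITGA6. The calls of the 2 against 2 comparison rest on these NRG1 libraries, which were more alike than any other pair, against control 1 and control 2.

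Ratios between genes within a library do not depend on how libraries are scaled, and 4 were compared by a two-sided exact permutation test, which cannot give a p below 0.1 with 3 against 3 libraries. For LAMA3 to LAMA5, the alpha chains, the controls had ratios of expected counts of 1.32, 1.16 and 2.15, and the NRG1 libraries 1.58, 0.331 and 0.391. LAMA3 thus had more counts than LAMA5 in 4 libraries, and fewer in NRG1 2 and NRG1 3. The mean log2 ratio was 0.57 ± 0.47 in control and -0.76 ± 1.24 in NRG1 (SD, n = 3 each, exact p = 0.3, adjusted over the 4 ratios 0.6), with a difference of -1.33 between groups that overlapped through NRG1 1, at 0.66.

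For ITGB4 to ITGA6, the chains of the receptor, the controls had ratios of 1.78, 2.01 and 1.75, and the NRG1 libraries 1.56, 1.29 and 1.12. These groups did not overlap. The mean log2 ratio was 0.88 ± 0.11 and 0.39 ± 0.24 (SD, n = 3 each), a difference of -0.49 with an exact p of 0.1, the smallest possible, and 0.4 after adjustment. After the correction for GC content NRG1 1 had the highest log2 ratio of all libraries, 0.96 against 0.78 to 0.88 in control, the groups overlapped, and the difference was -0.39 (exact p = 0.4).

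The other ratios showed no separation. The log2 ratio of LAMB3 to LAMB1, beta chains of the different trimers, was 0.67 ± 0.52 in control and 0.55 ± 0.41 in NRG1 (SD, n = 3 each, exact p = 0.7). It differed by -0.12 over all libraries and by 0.40 in the 2 against 2 comparison, so it has no direction here. The log2 ratio of PLEC to DST was 0.60 ± 0.08 and 0.51 ± 0.31 (SD, n = 3 each, exact p = 0.8). Its difference was -0.09 over all libraries and 0.12 in the 2 against 2 comparison, so it has no direction either.

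**Figure D3:**
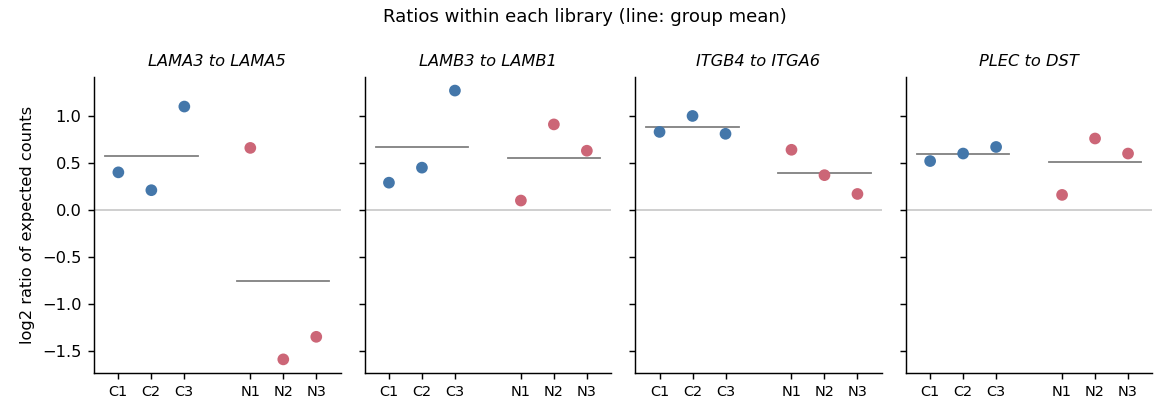
Log2 ratio of expected counts of 4 gene pairs in each library, with control vector libraries C1 to C3 in blue, NRG1 vector libraries N1 to N3 in red and lines at the group means. The ITGB4 to ITGA6 ratio is lower in all 3 NRG1 libraries than in any control, and the LAMA3 to LAMA5 ratio is below 0 in N2 and N3 alone.

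Levels of different genes were compared per kb of exon sequence (union of exons, GENCODE 29), since a longer transcript gives more counts. In control ITGB4 was highest, at 118 ± 19.8 CPM per kb, followed by LAMB3 at 99.8 ± 11.4 CPM per kb, and the libraries of these genes overlapped. The controls of LAMB3 (92.3 to 113 CPM per kb) and of ITGA6, which came next (53.3 to 83.3 CPM per kb), did not overlap. ITGA6 at 68.5 ± 15.0, PLEC at 57.4 ± 9.61 and LAMB1 at 46.1 ± 11.1 CPM per kb stood in the middle. LAMC1 at 40.1 ± 4.04, LAMA3 at 39.0 ± 8.29, LAMA5 at 26.4 ± 9.99 and DST at 20.4 ± 4.51 CPM per kb closed the order (SD, n = 3 each), and from ITGA6 down each gene overlapped the next in its control libraries. In NRG1 LAMB3 (86.2 ± 10.2 CPM per kb) and ITGB4 (85.9 ± 18.4 CPM per kb) overlapped, ITGA6 followed at 68.5 ± 3.91 CPM per kb, and LAMA5 (48.1 ± 20.3 CPM per kb) stood above LAMA3 (28.6 ± 11.3 CPM per kb) in the means (SD, n = 3 each). That order of the alpha chains came from NRG1 2 (64.7 against 22.2 CPM per kb) and NRG1 3 (54.1 against 21.9 CPM per kb), and NRG1 1 had the control order (25.5 against 41.6 CPM per kb). LAMA3 is known to have a short and a long form, and the exon length used covers both. Per kb of the longest transcript instead, the control means were 40.4 for LAMA3 and 40.1 for LAMC1. They were 28.1 for DST and 26.4 CPM per kb for LAMA5. The order of LAMC1 and LAMA3, and that of LAMA5 and DST, thus depended on which of these lengths was used. Neither is the length of a shorter form of LAMA3 or DST. If shorter forms were the main ones, the levels per kb of these genes would be higher. The order with such lengths, that of LAMA3 and LAMA5 included, was not computed.

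Several of these transcripts are long, and some are rich in G and C, and the libraries differed in such genes. The longest transcript has 11.4 kb and 66.4% GC for LAMA5, 15.2 kb and 67.0% GC for PLEC, 10.7 kb and 50.7% GC for LAMA3 and 22.4 kb and 41.3% GC for DST. Over the 51 tested genes with a transcript of at least 8 kb and at least 60% GC, the median log2 deviation from the mean of all libraries was -0.57 in NRG1 1, 0.36 in NRG1 2 and 0.15 in NRG1 3, and -0.03 to 0.05 in the controls. For LAMA5 the difference between NRG1 1 and the mean of NRG1 2 and NRG1 3 was -1.21 in log2 CPM, where the median of the 51 genes was -0.88 and 14 of them were lower than LAMA5. For PLEC, as GC-rich and longer, that difference was -0.02, and for LAMA3 it was 0.92. The log2 deviation of LAMA5 in control 3 was -1.08, where the long GC-rich genes were at -0.03. A correction for GC content per library left the fold changes of LAMA5 at 0.89 (SE 0.32, adjusted p = 0.383 by edgeR) and of LAMA3 at -0.41 (SE 0.31), and gave PLEC -0.20 and ITGB4 -0.35. With this correction 0 of the 9 genes passed the threshold, against 0.0259% of all genes, and in the 2 against 2 comparison 3 did, against 10.2% of all genes: LAMA5 was higher, against 4.95% of all genes, and LAMA3 and LAMB1 were lower, against 5.25%. A correction for length with GC was not made, and its part in these values was not tested.

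**Figure D4:**
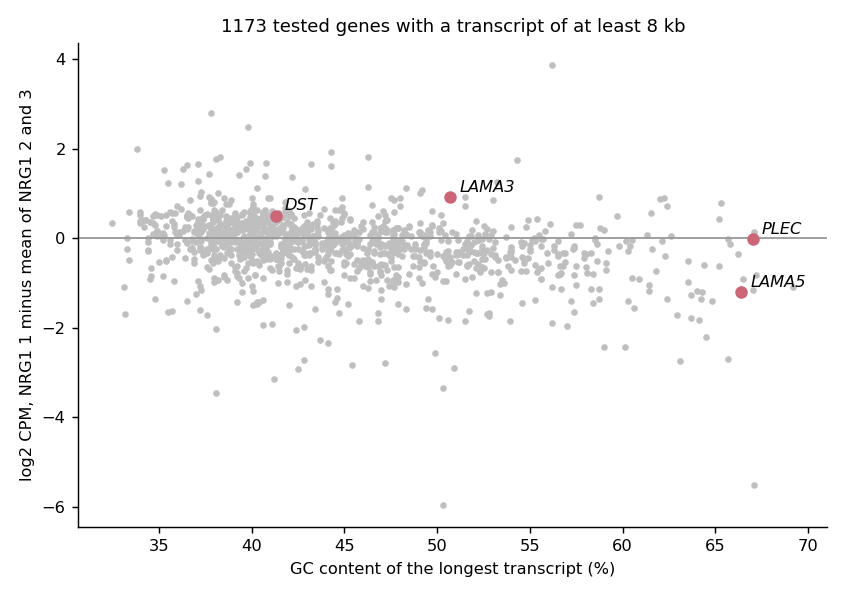
Log2 CPM of NRG1 1 minus the mean of NRG1 2 and NRG1 3 against the GC content of the longest transcript, for the 1173 tested genes with a transcript of at least 8 kb (grey), with LAMA3, LAMA5, DST and PLEC in red. LAMA5 at -1.21 lies among the other long genes of at least 60% GC, whose median is -0.88, PLEC at -0.02 lies near 0, and LAMA3 at 0.92 is high for its GC content.

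Named antisense genes lie against LAMA5 and ITGA6, and counting by strand is not stated. LAMA5-AS1 had 0 to 4.7 expected counts per library and ITGA6-AS1 had 1.3 to 7, against at least 2230 for each of the 9 genes. Other genes, known by clone names only, also overlap exons of ITGA6 on the opposite strand, and their counts were not examined.

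Of 6 other laminin chain genes 3 were tested, and 0 passed the threshold by edgeR over all 6 libraries, with 1 log2 fold change above 0, 2 below and a median of -0.23. LAMB2, a beta chain that can replace LAMB1, was at 144, 219 and 117 CPM in the control libraries, and the NRG1 libraries had 117, 365 and 334 CPM, with NRG1 2 and NRG1 3 above all controls as for LAMA5. Its log2 fold change was 0.77 (SE 0.41, adjusted p = 0.476 by edgeR), and LAMB2 rose by 0.94 in the 2 against 2 comparison (adjusted p = 0.0259 by edgeR). The log2 fold change was -0.50 for LAMA1 and -0.23 for LAMA2, both low in these cells, and the 3 chains not tested, LAMA4, LAMB4 and LAMC3, had 1 to 7.1 expected counts per library together.

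In the 2 against 2 comparison the log2 fold changes of the hemidesmosome-bound laminin were thus -0.90 for LAMA3 and -0.04 for LAMB3, and those of the general trimer were 0.90 for LAMA5, -0.44 for LAMB1 and 0.18 for LAMC1. LAMA3 and LAMA5 passed the threshold there and the other 3 chains did not, and differences between chains were tested only for the ratios above.

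Of 8 other genes of hemidesmosomes and laminin receptors, all tested, 0 passed the threshold and the median log2 fold change was -0.08. COL17A1, the transmembrane collagen of hemidesmosomes, was present at 1101, 876 and 709 CPM with the control vector, and at 391, 709 and 659 CPM with the NRG1 vector. Here NRG1 1 was the lowest library, and NRG1 2 met control 3, so that the groups touched. For COL17A1 the log2 fold change was -0.61 (SE 0.26, adjusted p = 0.415 by edgeR). ITGA3, which pairs with ITGB1 as another laminin receptor of epithelia, had -0.47 (SE 0.21, adjusted p = 0.432 by edgeR), the muscle laminin receptor chain ITGA7 had -0.39, and the LAMA5-binding glycoprotein BCAM had 0.29. In the 2 against 2 comparison 0 of the 8 passed.

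Of 15 other basement membrane genes, all tested, 0 passed the threshold by edgeR, with 7 log2 fold changes above 0 and 8 below and a median of -0.23. At an unadjusted p under 0.05 there were 2 higher and 5 lower, 7 of 15 against 11.8% of all genes, and the same numbers had groups that did not overlap, against 19.6% of all genes. In the 2 against 2 comparison 4 of the 15 were higher, against 5.07% of all genes, and 4 were lower, against 4.77%. DESeq2 called 4 of the 15, all lower, against 0.759% of all genes called lower: COL4A1 and COL4A2, which form the collagen network of basement membranes, COL18A1, a basement membrane collagen with heparan sulfate chains, and NID1, which links laminin to the collagen network. COL4A1 was measured at 143, 118 and 95.9 CPM in the controls, against 65.6, 46.2 and 43.5 CPM in the NRG1 libraries, and COL4A2, its trimer partner, was at 294, 232 and 198 against 136, 108 and 94.9 CPM. The log2 fold change was -1.20 (SE 0.22) for COL4A1 and -1.09 (SE 0.20) for COL4A2, with adjusted p-values of 0.198 by edgeR for both and 0.00143 and 0.00199 by DESeq2.

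COL18A1 was at 45.1, 35 and 32.9 CPM in the control libraries, and the NRG1 libraries had 8.78, 16.4 and 12.8 CPM, with a log2 fold change of -1.56 (SE 0.27, adjusted p = 0.184 by edgeR and 0.000128 by DESeq2). NID1 was present at 11.4, 10.7 and 11.7 CPM with the control vector, and at 3.21, 5.98 and 4.23 CPM with the NRG1 vector, with a log2 fold change of -1.31 (SE 0.30, adjusted p = 0.268 by edgeR and 0.0153 by DESeq2). These 4 genes were below all controls in NRG1 1 as well as in NRG1 2 and NRG1 3. The other 3 genes of this list at an unadjusted p under 0.05 were chosen for naming after their values were seen. FREM2, a basement membrane protein of the embryonic epidermis, was low, with 1.72 to 4.71 CPM in the controls, against 0.543 to 1.12 CPM with NRG1, and a log2 fold change of -2 (SE 0.53, adjusted p = 0.327 by edgeR). PXDN, a peroxidase that crosslinks collagen of the basement membrane, was measured at 40.1, 40.5 and 30.1 CPM in the controls, against 42.8, 106 and 98.9 CPM in the NRG1 libraries. NTN4, a netrin that binds laminin, was at 21.9, 22.3 and 15.5 CPM in the control libraries, and the NRG1 libraries had 29.9, 33.1 and 31.8 CPM. The log2 fold changes of PXDN and NTN4 were 1.17 (SE 0.33, adjusted p = 0.332 by edgeR) and 0.67 (SE 0.22, adjusted p = 0.358 by edgeR).

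Relatives of PLEC and DST, the plakins, had a median log2 fold change of 0.14 over the 4 tested, and 0 passed the threshold. These were 0.32 for EVPL and 0.17 for PPL of the cornified envelope, 0.11 for the desmosome linker DSP and -0.13 for the cytoskeletal crosslinker MACF1, whose sign turned when control 3 or NRG1 1 was left out. PPL rose by 0.66 in the 2 against 2 comparison (adjusted p = 0.0145 by edgeR). The sign of PPL turned without control 1, to -0.03.

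Of 6 proteases that can cut laminin chains, 5 were tested and 0 passed the threshold, with a median of -0.86. MMP14, a membrane-bound metalloproteinase, was present at 245, 233 and 222 CPM with the control vector, and at 218, 398 and 369 CPM with the NRG1 vector, with NRG1 1 below the controls and the others above. Its log2 fold change was 0.49 (SE 0.22, adjusted p = 0.435 by edgeR), and MMP14 rose by 0.68 in the 2 against 2 comparison (adjusted p = 0.0126 by edgeR). The other proteases named by the rule were low: MMP2, a secreted gelatinase, had 6.3 to 18.4 CPM and a log2 fold change of -0.95 (SE 0.30, adjusted p = 0.358 by edgeR), and the tolloid-like proteases TLL1 and TLL2 had -0.86 and -0.94. In the 2 against 2 comparison TLL1 was at -1.37 (adjusted p = 0.0293 by edgeR).

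**Figure D5:**
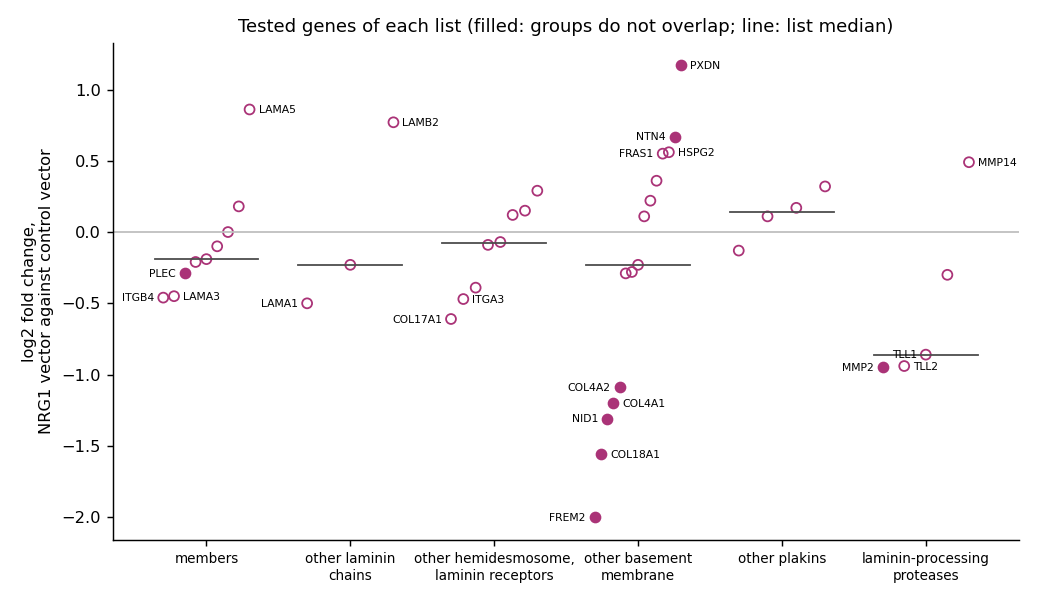
Fitted log2 fold change of every tested gene of the 9 laminin and hemidesmosome genes (labelled members) and of the 5 related lists, over all 6 libraries; filled points are genes whose groups do not overlap and horizontal lines are list medians. The medians are -0.19, -0.23, -0.08, -0.23, 0.14 and -0.86, and the filled points below 0 in the basement membrane list are FREM2, COL18A1, NID1, COL4A1 and COL4A2.

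Markers of basal cells, the type that makes hemidesmosomes, differed between the groups in sum. Their summed level over 9 genes was 11477, 7888 and 8114 CPM in the controls, and in the NRG1 libraries it came to 6187, 5067 and 5006 CPM, and an unadjusted p under 0.05 was reached by 4 of the 9, against 11.8% of all genes. Of these KRT14, KRT17 and NGFR were below 0 and KRT15 was above. The groups of KRT15 overlapped, since NRG1 1 at 13.4 CPM was inside the control range (7.49 to 16.2 CPM), with NRG1 2 at 80.4 and NRG1 3 at 79.4 CPM. KRT5, which makes up much of the sum, also overlapped between the groups. Over all 9 markers the fitted log2 fold change was below 0 for 6 and above 0 for 3, so the sum does not describe each marker. DLK2 was higher in every NRG1 library than in any control (0.5, SE 0.26), and TP63 overlapped (0.09, SE 0.19). The size of the NGFR change, -3.05, rested on its highest library, control 3 at 302 CPM, and leaving that library out gave -1.14. DESeq2 called KRT14 and KRT17 lower and KRT15 higher. The summed level of the 9 laminin and hemidesmosome genes was 5318, 4138 and 4008 CPM in the controls, and in the NRG1 libraries it came to 4268, 4165 and 3957 CPM, which overlapped. In RNA of whole cultures, fewer cells of a type and less RNA per cell cannot be told apart. Fibroblast markers (7 genes, 2 of them tested) summed to 43.1 to 67.9 CPM in the controls and to 20.1 to 28.1 CPM with NRG1, and ciliated cell markers (7 genes) to 15.8 to 18.3 CPM and 9.02 to 39.9 CPM. Secretory cell markers (8 genes) summed to 28.4 CPM in control 3, to 59.6 CPM in NRG1 3, and to 0.187 to 0.404 CPM in the other libraries; the highest single values were 24.0 CPM for SCGB1A1 and 18.8 CPM for BPIFB1, both in NRG1 3, and SCGB3A2 had no count. Leukocyte markers (7 genes) summed to 24.5 to 38.4 CPM in the controls and to 16.9 to 30.4 CPM with NRG1, and 5 endothelial markers to at most 2.61 CPM in any library, with CD68 at up to 32.0 CPM and no count for CD3E or CDH5. The part of these markers in the laminin and hemidesmosome values was not tested.

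For each gene the nearest in pattern was sought among 10589 tested genes with a mean of at least 10 CPM, as the smallest root mean square difference of centred log2 CPM over the 6 libraries. The 9 genes themselves were left out of the search, so none could be the nearest of another. The nearest were SREBF1 for LAMA3 (0.05 log2 units), ZDHHC23 for LAMA5 (0.13), NPM3 for LAMB1 (0.05), PANK4 for LAMB3 (0.05), LAMC1's neighbour TFAP4 (0.03), HARS1 for ITGA6 (0.06), NDUFB6 for ITGB4 (0.04), SV2A for DST (0.07) and NME4 for PLEC (0.03). The distance was largest for LAMA5, which also had the widest range of log2 CPM over the libraries, 2.03 against 0.40 to 1.14 for the others. The distances were not scaled to these ranges. None of the 9 nearest genes was on the lists of laminin, hemidesmosome or basement membrane genes. Genes of those lists are a small part of the genes searched, so this does not show whether the 9 genes vary with them.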

How the data were processed

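The 9 genes and all lists were chosen with earlier results of these data known. Per the labels' protocols, a TruSeq kit was used on polyA RNA. The authors deposited RSEM-type expected counts per Ensembl gene, not normalized; RSEM 1.3.0, STAR 2.5.3a, MultiQC 0.9, FastQC 0.11.3 and the hg19 build are named, without roles, in the submitters' processing notes, and no annotation is named there. RSEM shares reads among genes and joins isoforms here. A further deposited table, which the design took for CPM, held log2 CPM values for 14759 genes; limma-trend alternatives used these. No column belonged to another sample.

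Counts were rounded, and edgeR 4.0.16 (under R 4.3.3) was run on them (TMM, filterByExpr, quasi-likelihood, no covariate, Benjamini-Hochberg over 15421 genes, threshold 0.05), and this was checked on simulated counts. The simulated counts had the same dispersion for every gene and no outlying library. The check therefore does not give the power or error rate in these libraries. Libraries were grouped by title. Totals of 8612234 to 13207620 make counting error minor for these genes. Symbols came from a name table (51959 of 57736 genes), and length and GC from GENCODE 29 (97.4% of tested genes). EPPK1 and PECAM1 found no match, and 1 gene first listed is not reported here. Genes were named as follows: NRG1, the 9 genes, up to 4 genes per list with the smallest unadjusted p, and the nearest pattern for each. Alternatives were DESeq2 1.42.0, upper-quartile scaling, other low-count filters, limma 3.58.1 (voom, and trend on log2(CPM + 1) and log2(CPM + 0.25)), the replicate block, each library left out, and 2 against 2 libraries. The older dispersion method of edgeR and GC correction (loess span 0.3) were chosen after seeing the data.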

Additional observations from a re-analysis of the deposited data

How the results depend on the processing

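Genes past the threshold numbered 1 over all 6 libraries, 209 with DESeq2, 21 with no low-count filter, 2 with limma-voom, 1 to 50 when 1 library was left out (50 without NRG1 1), 1547 in the 2 against 2 comparison, 4 with GC correction and 1603 with both. Of the laminin and hemidesmosome genes 0 passed, except 3 in the 2 against 2 comparison and 3 with GC correction added to it. Their median, -0.19, ran from -0.29 to -0.01 with 1 library left out (-0.01 without control 1), and was -0.39 in the 2 against 2 comparison and -0.43 with GC correction added. Leaving out 1 library turned LAMB1 to 0.05 and PPL to -0.03 (both without control 1), and MACF1 to 0.06 (without control 3) and 0.02 (without NRG1 1), in ranges of -0.03 to 0.57 for PPL and -0.30 to 0.06 for MACF1; MACF1 was 0.21 in the 2 against 2 comparison and 0.20 with GC correction added. The difference in the log2 ratio of LAMB3 to LAMB1 turned from -0.12 to 0.40 in the 2 against 2 comparison, and that of PLEC to DST from -0.09 to 0.12. For the 9 genes, 155 of 162 alternative fold changes kept their direction and side of the threshold, 6 passed it and 1 turned; ITGA6, at 0.00, has no direction to keep. The causes were not tested. Across genes same-numbered libraries did not deviate together (correlations 0.02, 0.12 and -0.08), and their numbers were not taken as pairs. The secretory cell markers, too low to test, did share a pattern by number. They summed to 28.4 CPM in control 3 and 59.6 CPM in NRG1 3, against 0.187 to 0.404 CPM in the other libraries. With the replicate block 2 genes passed, 0 of the 9. The exact permutation p of the ratios was then 0.25 to 0.75, where 0.25 is the smallest that this test can give.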
